A study of Eutrema with 12 samples.

Results

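The 52 cDNA clones described here had high transcript ratios of field over cabinet plants in cauline leaves of Thellungiella salsuginea harvested in 2003 and ratios near 1 in the harvest of 2005. They were selected on these same ratios from the 4042 clones of the array whose names begin with cld, drt or slt (drtg and sltg included), out of 4279 cDNA names in all. A clone was taken when its mean log2 ratio of field over cabinet was at least 1.5 (2.83-fold) in 2003, when all 3 plants of 2003 were above 0, and when its 2005 mean lay within 0.585 (1.5-fold) of 0. For the selection the log2 ratio of the uncorrected intensities was centred on the array's median, and spots of a name, the 2 arrays of a plant and the 3 plants of a year were averaged. Of the 4042 clones, 123 reached the 2003 limit, and 121 of these were above 0 in all 3 plants. The 2005 mean was above the upper limit in 69 of the 121 and below the lower limit in 0, which left the 52 (1.29% of the clones with these prefixes).

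The field groups were 3 individual plants of the Yukon ecotype harvested at a natural Yukon site in 2005 and 3 harvested there in 2003, lettered A, B and C in each year (the third plant of 2005 has the letter C in the sample records, used here, but D in the design text). Their age is not given. The reference was RNA from cauline leaves of Yukon ecotype plants aged 12 weeks, raised untreated in controlled environment cabinets, and every plant was hybridized against it on 2 arrays with the dyes Cy5 and Cy3 exchanged, which gives 12 arrays. The site was dry before the 2003 harvest and wet before that of 2005, and the comparison asks which transcripts differ from the cabinet in one field season and not in the other. By the sample records, mRNA was amplified before labelling for the field plants only, so field growth and amplification cannot be told apart in a ratio to the cabinet. Whether plants were set against the same cabinet RNA is not stated, so the ratios of both years may share their reference. In leaf tissue, less RNA per cell and fewer cells of a type cannot be told apart. The files pair no clone with a gene, so that markers of cauline leaf could not be checked and no clone can be given a role.

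Thellungiella is a relative of Arabidopsis that grows on saline soil and tolerates drought, salt and freezing. In such plants, water deficit raises the hormone abscisic acid (ABA), which acts through receptors, phosphatases and kinases on transcription factors that switch on genes for protective proteins, for lipid transfer and for osmolyte synthesis. Cold acts in part through CBF/DREB transcription factors on an overlapping set of targets, and many of these transcripts decline once water returns. The array was printed from cDNA libraries enriched for stress-responsive transcripts, and several clones of such libraries can carry the same transcript. The files do not say which do, so the 52 clones may stand for fewer transcripts.

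The values below come from intensities corrected for background and normalized by loess within each array, and are log2 ratios of field over cabinet unless another scale is named. In this setting the 52 clones had a median of 0.02 in 2005 (-0.44 to 0.74) and 2.46 in 2003 (1.62 to 4.23), beside medians over all 4279 names of -0.03 in 2005 and -0.003 in 2003. As a fold, the clone with the median ratio stood at 1.02 times the cabinet level in 2005 and at 5.49 times in 2003, and the folds of 2003 ran over the clones between 3.08 and 18.7. These levels are what the choice asked for and are given as a description.

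**Figure D1:**
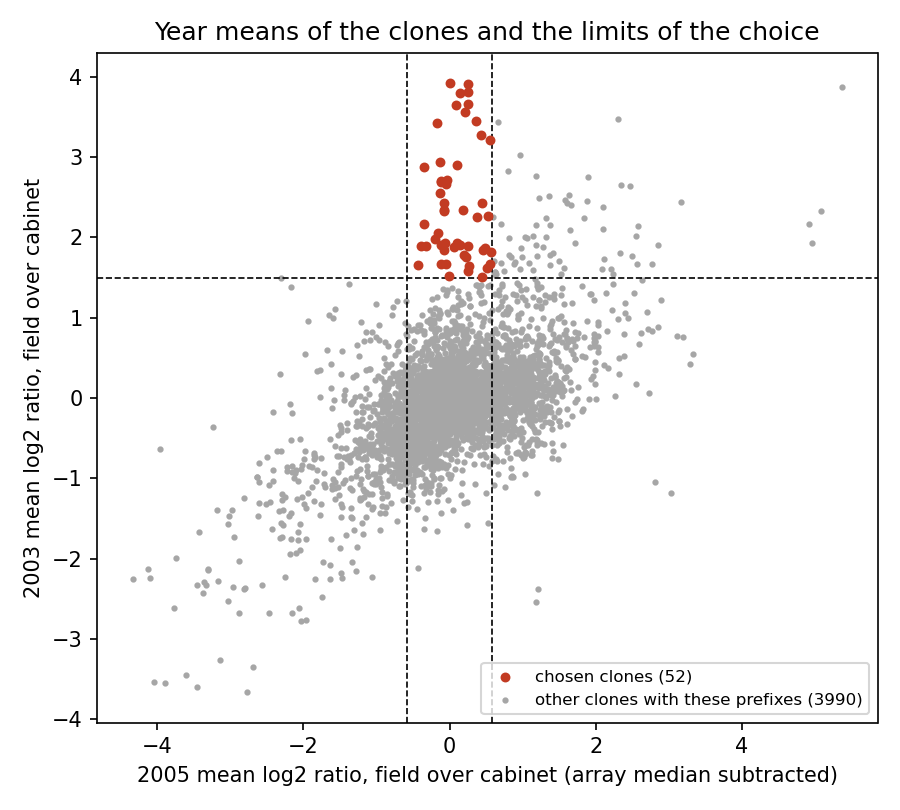
Mean log2 ratio of field over cabinet in 2005 (horizontal axis) and in 2003 (vertical axis), with each array's median subtracted, for the 52 chosen clones (red) and the other 3990 clones with the same prefixes (grey). Dashed lines mark the limits of the choice, -0.585 and 0.585 in 2005 and 1.5 in 2003. The chosen clones fill the area above 1.5 between the 2 vertical lines and reach 3.92 in 2003.

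The limits cut through a continuous cloud. On the scale of the selection, drt2_g09 lay just inside the 2003 limit at 1.51 and cld18_h03 just outside at 1.41, with 2005 means of 0.45 and 0.43. At the upper limit of 2005, drtg5-67 lay inside at 0.56 and cld2_c04 outside at 0.60. The lowest 2005 mean of a chosen clone was -0.43 (drtg5-69), and no clone that met the 2003 limits lay below -0.585. The lowest plant value of 2003 among the 52 was 0.51, in cld22_g10.

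The name prefixes of the 52 clones differed in share from those of the array. The prefixes drt and drtg together held 34 of the 52 (65.4%), against 31.4% of the 4042 eligible names. The prefix cld held 13 (25%, against 48.8% of the eligible names), slt 4 (7.69%, against 16.2%) and sltg 1 (1.92%, against 3.59%). Among drtg clones 3.56% were chosen, among drt clones 2.14%, and among cld, slt and sltg clones 0.659%, 0.613% and 0.69%. The records do not say what the prefixes stand for, and several clones of a prefix may carry the same transcript, so these shares were not tested. Outside the 3 prefixes, 14 of 237 names met the same numerical limits, all of them among the 135 clones whose names begin with sc (10.4% of the sc clones). The 52 clones lay in 34 of the 48 spotting blocks of the array, with at most 4 in a block.

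The highest ratios of 2003 belonged to a group of clones with near-identical profiles across the plants. The clone with the highest mean, drt8_h04, had ratios of 1.33, -0.22 and -0.59 in plants A, B and C of 2005, against 5.63, 4.02 and 3.03 in plants A, B and C of 2003. Every plant of 2003 was thus above every plant of 2005, but the 2005 plants themselves fell on both sides of the cabinet level. Its means were 0.17 ± 1.02 in 2005 and 4.23 ± 1.31 in 2003 (SD, n = 3 plants each). The clone drt3_g06 followed drt8_h04 at a root mean square distance of only 0.08 over the 6 plants, with 1.49, -0.16 and -0.58 in 2005, against 5.57, 4.03 and 2.98 in 2003. In drtg5-43 the values were 1.54, -0.25 and -0.74 in 2005, against 5.81, 4.03 and 2.64 in 2003, and the 5.81 in plant A of 2003 is the highest ratio of any chosen clone in any plant. The clones drtg6-88, drt12_f04 and drt6_a08, which complete the 6 highest on the selection scale, had the same order of plants in each year.

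To describe such likeness, the 52 clones were joined by average linkage on the root mean square distance of their 6 plant ratios and divided at 0.5, a limit chosen after the values were seen. This gave 23 sets, of which 12 held 2 or more clones (41 clones in all) and 11 held 1 clone. The sets differed in the level of the ratios and in which plant of 2003 was highest.

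The set led by drt8_h04 held 8 clones, the 6 above with drt1_d04 and drt8_d08, and all carry the prefix drt or drtg. Its median ratios were 1.29, -0.17 and -0.72 in plants A, B and C of 2005, against 5.51, 3.96 and 2.30 in plants A, B and C of 2003. Plant A was the highest and plant C the lowest in both years in all 8 clones. The 2005 mean near 0 in this set is therefore an average of a plant A above the cabinet by 0.97 to 1.54 and a plant C below it by values between -0.83 and -0.51. Over the whole array, 7 names came within a distance of 0.5 of drt8_h04, and all 7 are chosen clones.

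The set led by drtg4-26 also held 8 clones (drtg6-42, drtg5-45, drt5_a10, drtg4-55, drtg5-36, drtg6-41 and cld17_a04 beside it), and it was the most even of the large sets in 2005. Its medians were 0.29, -0.14 and -0.22 in plants A, B and C of 2005, against 2.43, 4.26 and 1.96 in plants A, B and C of 2003. Here plant B of 2003 was the highest in every clone, at 4.05 to 4.43, while all 24 ratios of 2005 lay between -0.32 and 0.48. A set of 5 clones (cld17_a02, cld25_e10, drtg5-69, drt1_f04 and drt10_d11) had the same highest and lowest plant of 2003 at lower ratios, with medians of 0.19, -0.23 and -0.32 in 2005, against 2.1, 2.82 and 0.97 in 2003. A set of 3 (drtg4-51, cld15_a10 and drtg1-62) had medians of 0.26, -0.21 and 0.29 in 2005, against 2.54, 3.32 and 1.76 in 2003.

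Further sets differed from these in level or in the order of the plants. The 3 clones slt14_a07, cld1_g11 and cld4_d11 were high mainly in plant A of 2003, with medians of 0.95, 0.04 and 0.02 in 2005, against 3.60, 1.48 and 0.98 in 2003. Plant A was the highest of its year in 2005 as well in these 3 clones. The clones cld12_h05 and cld25_h06 had plant B as the lowest in both years, with -1.13 and -1.06 in plant B of 2005 against 1.12 and 1.22 in plant B of 2003. The clones slt1_b07 and slt1_e08 were lowest in plant A of 2003, at 0.75 and 0.72, and stood at 3.35 and 3.29 in plant B of that year. A single clone, drt15_a04, had its highest ratio in plant C of 2003 (3.56, against 1.80 in plant A and 1.27 in plant B of that year).

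**Figure D2:**
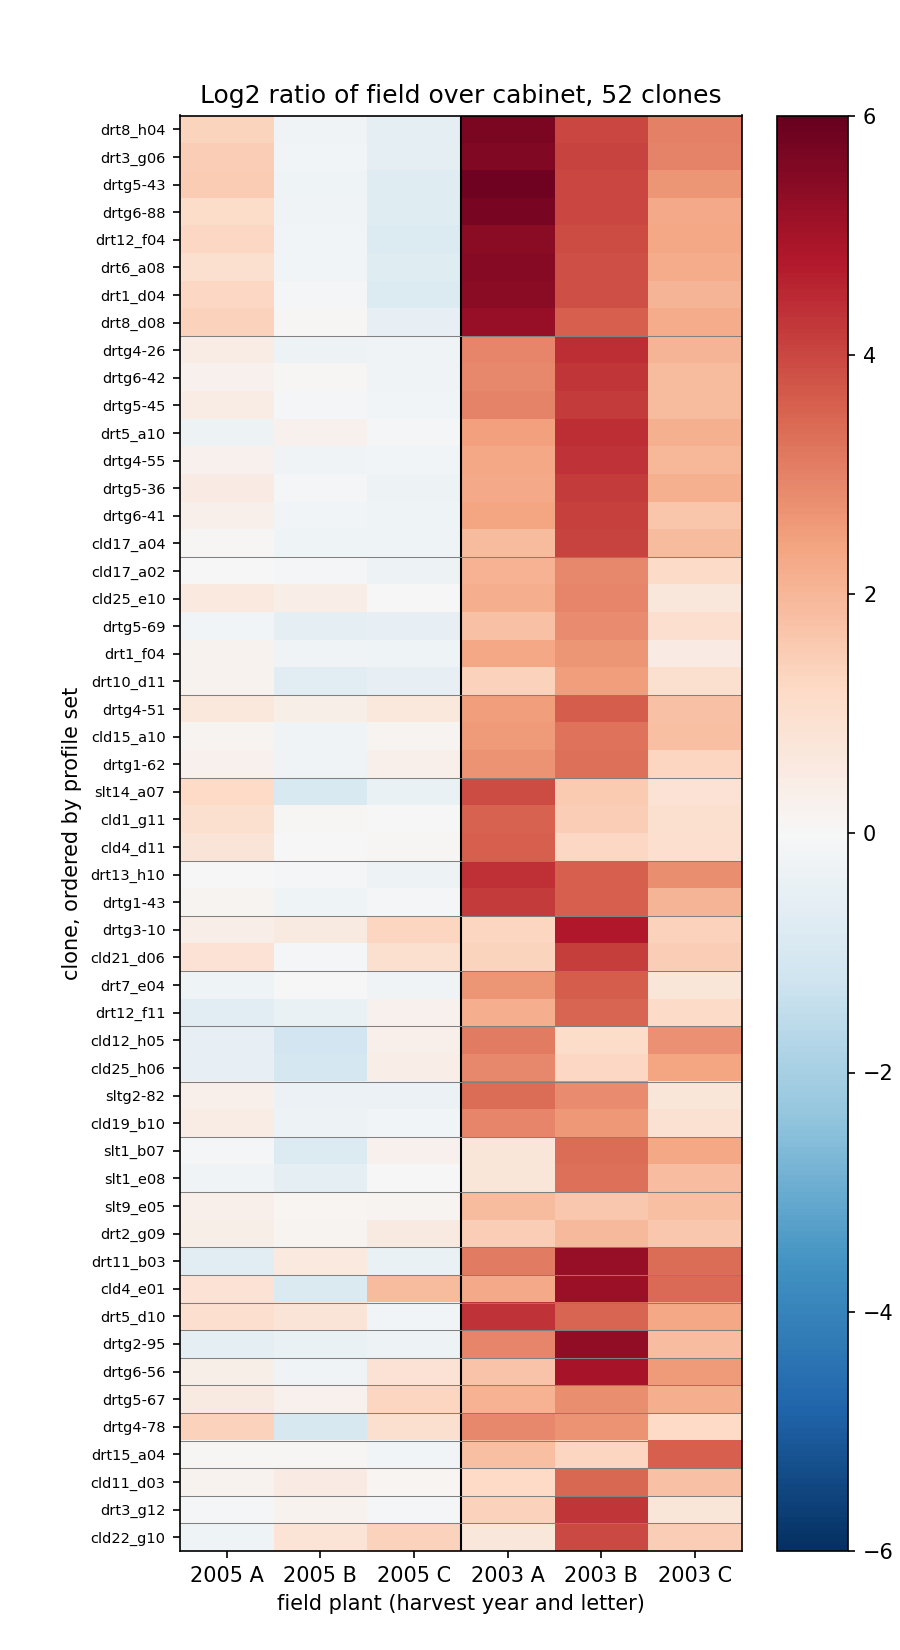
Log2 ratio of field over cabinet (colour, red above and blue below the cabinet level) of the 52 clones (rows, grouped by profile set, grey lines between sets) in the plants of 2005 and of 2003 (columns). All 52 clones are above 0 in the 3 columns of 2003, while the columns of 2005 hold values on both sides of 0 between -1.13 and 1.88.

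**Figure D3:**
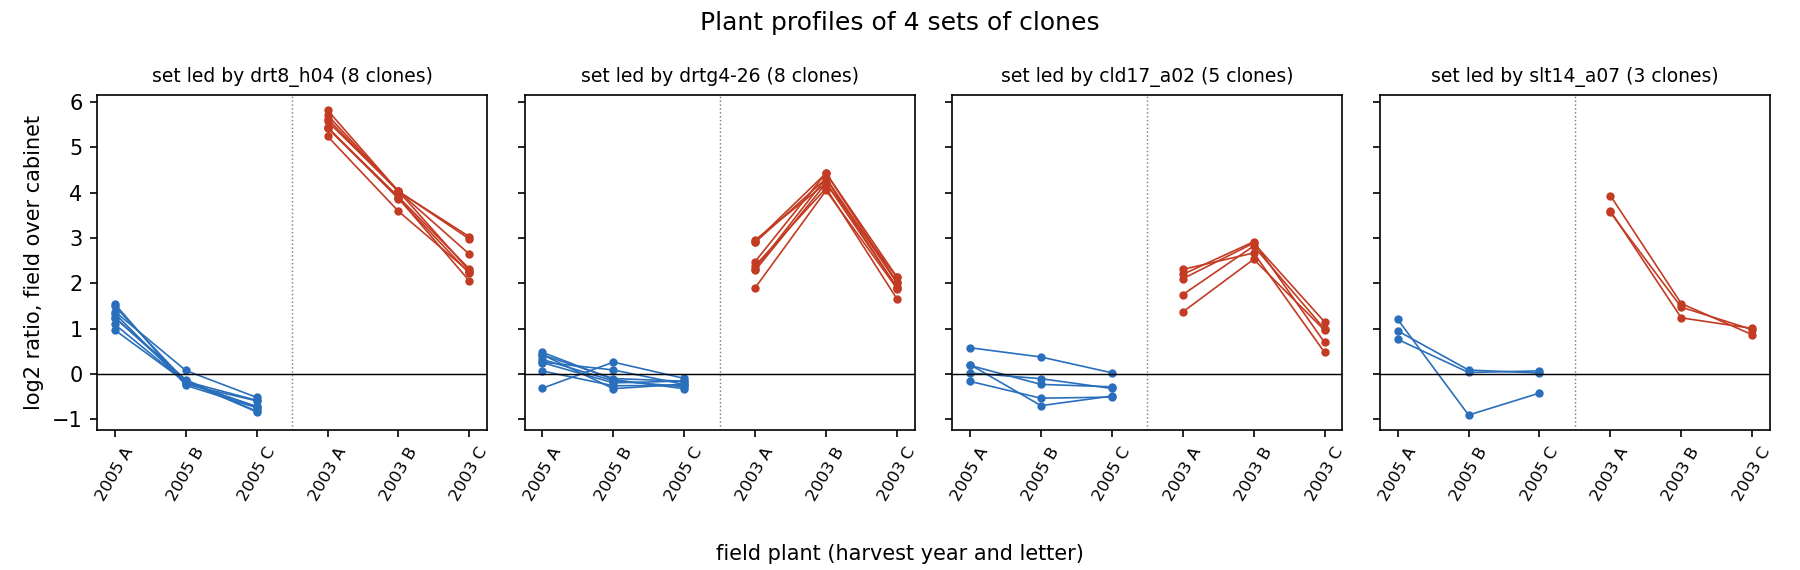
Log2 ratio of field over cabinet in each plant of 2005 (blue) and of 2003 (red) for the clones of 4 profile sets, 1 line per clone and year. The set led by drt8_h04 declines over plants A, B and C in both years, the sets led by drtg4-26 and cld17_a02 peak in plant B of 2003, and the set led by slt14_a07 peaks in plant A.

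Over all 52 clones, the ratios of the plants of 2003 differed from one another more than they did for the median cDNA. The median SD between plants of a year was 0.41 in 2005 and 1.22 in 2003 for the 52 clones, against 0.24 in 2005 and 0.38 in 2003 for all names. The choice used these same ratios and asked for a high 2003 mean, so nothing is read from this comparison with all names. By plant, the median ratio of the 52 clones was 0.32, -0.16 and -0.16 in plants A, B and C of 2005 and 2.59, 3.58 and 1.87 in plants A, B and C of 2003. The highest plant of 2003 was B in 31 clones, A in 20 and C in 1, and the lowest was C in 37, A in 11 and B in 4. In 2005 the highest plant was A in 30 clones, C in 16 and B in 6. The SD between plants of 2003 was smallest in slt9_e05 (0.13), with 1.89, 1.63 and 1.80 in plants A, B and C. It was largest in drtg3-10 (1.996), with 1.28, 4.79 and 1.39, so that the 2003 mean of 2.49 in that clone rests on plant B.

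The 2005 mean near 0 did not mean that each plant of 2005 was near the cabinet. All 3 plants of 2005 lay within 1.5-fold of the cabinet in 25 of the 52 clones. At least 1 plant was 1.5-fold or more above it in 21 clones and 1.5-fold or more below it in 16, with clones counted under both where plants differed. The widest spread of 2005 was in cld4_e01, with 0.86, -0.87 and 1.88 in plants A, B and C (SD 1.39), against 2.26, 5.11 and 3.40 in 2003. The 3 plants of 2005 were all above 0 in 9 clones, all below 0 in 4 (drt13_h10, drtg2-95, slt1_e08 and drtg5-69) and on both sides of 0 in 39.

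In 48 of the 52 clones every plant of 2005 was below every plant of 2003, and in 4 the years overlapped. Among all 4279 names the same held for 769 (18%), and since the choice used both year means, nothing is read from the difference between these shares. A limma fit with a mean for each year was made over all names (Benjamini-Hochberg adjusted p under 0.05 and a change of at least 1.5-fold). Its p-values measure the spread of the ratios between these plants, which holds the cabinet channel and the hybridization as well as the field plant. In the 2005 comparison with the cabinet it called 0 of the 52 (adjusted p 0.0598 to 0.985), beside 31.6% of all names called in either direction. An unadjusted p under 0.05 was reached there by 1 of the 52 and by 1985 of all 4279 names. In the 2003 comparison the fit called 49 of the 52 higher in the field, beside 10.1% of all names called higher. The 3 that missed were slt14_a07 (adjusted p = 0.06), drt3_g12 (0.0562) and cld22_g10 (0.06), and all 52 had an unadjusted p under 0.05, beside 1593 of all names. Fitted on the plants of 2003 alone, limma called 0 of the 52 (adjusted p under 0.05), with 52 at an unadjusted p under 0.05, and it called 0% of all names higher in that fit, with 1117 at an unadjusted p under 0.05. The calls of 2003 therefore rest on the spread shared with 2005, for all names as for these clones. Fitted on the plants of 2005 alone, limma called 1 of the 52, with 6 at an unadjusted p under 0.05, beside 1639 and 2373 of all names. The selection asked for a 2005 mean near 0, which largely fixed the low counts of 2005 in both fits. These counts do not show that the plants were at the cabinet level. Because the selection used these contrasts, the counts describe the clones and support nothing.

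For the difference of 2005 minus 2003, which the selection also fixed, the clones ran between -4.05 and -1.31 with a median of -2.52, beside -0.02 over all names. The fit called 6 of the 52 lower in 2005, where 0.818% of all names were called lower in 2005. An unadjusted p under 0.05 was found in 49, beside 1162 of all names in either direction. Among the 46 clones not called, the adjusted p in limma lay between 0.0524 and 0.337. This fit had no block, and the labels do not say that same-lettered plants of the years are paired. As an alternative the letter was made a replicate block, because same-lettered plants deviated together in these same data. With that block 31 of the 52 were called, including all 6, where 4.58% of all names were called lower in 2005. Leaving out any plant of 2005 ended all 6 calls (0 called, and 0 of all names), leaving out plant A of 2003 left 1 (0.14% of all names lower), leaving out plant B gave 15 (1.26%) and leaving out plant C gave 30 (2.48%). No recorded scanner day held arrays of both years, so day and harvest year cannot be told apart.

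The 6 called clones were those with little spread between plants for the size of their change, and they were not the 6 with the highest ratios. The largest difference among them was in drt11_b03, with -0.62, 0.59 and -0.41 in plants A, B and C of 2005, against 3.12, 5.23 and 3.34 in 2003. The difference was -4.04 ± 0.62 (SE, limma adjusted p = 0.0424, with the block 0.0154). In drt13_h10 the ratios were -0.04, -0.05 and -0.31 in 2005, against 4.40, 3.56 and 2.79 in 2003. The difference was -3.71 ± 0.40 (SE, limma adjusted p = 0.0344). Its lowest ratio of 2003 was well above its highest of 2005, but its signals of 2005 were lower than those of spots without a name, as given below.

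The clone drtg1-43, the only one within 0.5 of drt13_h10, had 0.14, -0.27 and -0.06 in 2005, against 4.20, 3.56 and 2.04 in 2003, a difference of -3.34 ± 0.53 (SE, limma adjusted p = 0.0474). In cld15_a10 the ratios were 0.15, -0.21 and 0.15 in 2005, against 2.54, 3.27 and 1.82 in 2003, a difference of -2.52 ± 0.37 (SE, limma adjusted p = 0.0408). Both clones followed the order common in the larger sets, with plant C the lowest of 2003. The remaining 2 had smaller and more even ratios. In slt9_e05 they were 0.29, 0.11 and 0.17 in 2005, against 1.89, 1.63 and 1.80 in 2003, and the difference was -1.58 ± 0.18 (SE, limma adjusted p = 0.0344). In drt2_g09 they were 0.36, 0.15 and 0.55 in 2005, against 1.46, 1.93 and 1.60 in 2003, and the difference was -1.31 ± 0.22 (SE, limma adjusted p = 0.0479). The profile nearest to drt2_g09 over the whole array was drtg5-64, at a distance of 0.07, which was not chosen. By contrast drt8_h04, with a difference of -4.05 ± 0.76 (SE), had an adjusted p of 0.0524 in limma and was not called.

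The signals of each channel are given as fold over the local background of the spot. In the field channel the 52 clones had a median signal of 15.1-fold in 2005, against 52.6-fold in 2003, while the median over all names was 21.8-fold in 2005 and 14.7-fold in 2003. The field signal placed the median clone at percentile 38.5 of all names in 2005 and at percentile 86.4 in 2003. In the cabinet channel their median was 13.8-fold on the 2005 arrays, against 14.01-fold on the 2003 arrays (percentiles 34.9 and 37.8). The field signal was lower in 2005 in 48 of the 52 clones and the cabinet signal in 22, beside 34.4% and 47.7% of all names. The called clones were not alike in this. The field signal of 2005 was 0.11 times that of 2003 in drt11_b03, 0.0832 times in drt13_h10 and 0.149 times in drtg1-43. It was 0.872 times in slt9_e05 and 0.926 times in drt2_g09, where the cabinet signal was 1.47 and 1.36 times as high on the 2005 arrays. In cld15_a10 the field signal was higher in 2005, at 2.07 times that of 2003, and the cabinet signal was 5.71 times as high. Ratios are made of these signals, so they describe the choice from another side and do not test it.

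**Figure D4:**
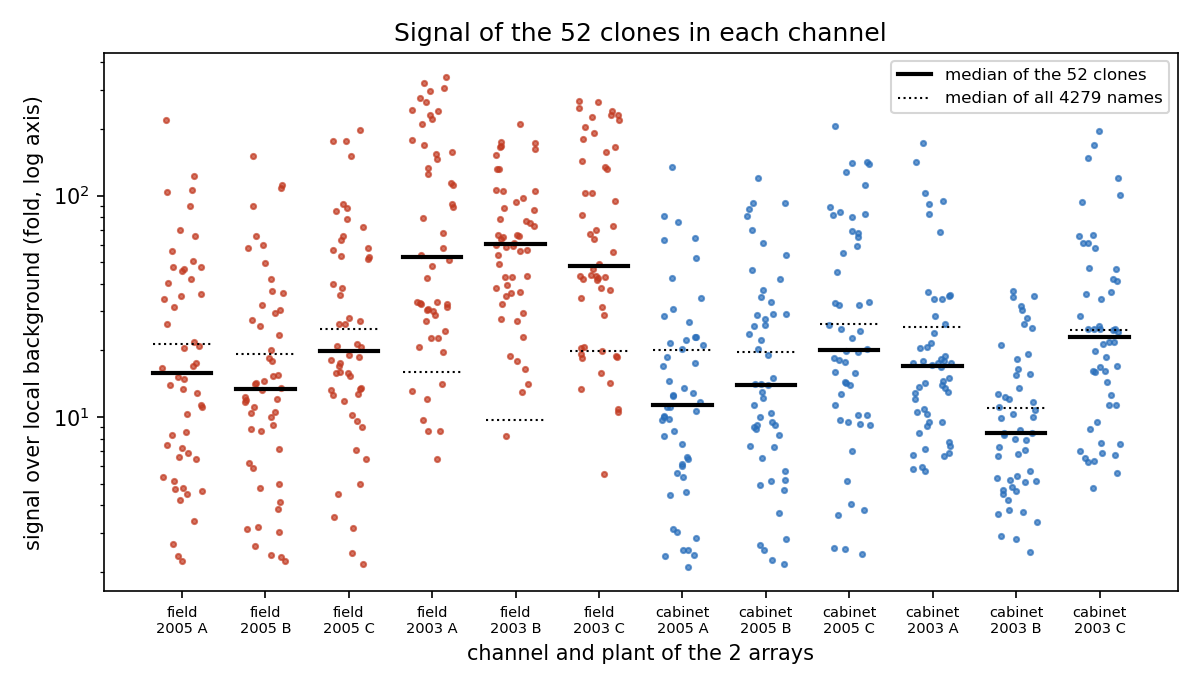
Signal over local background (log axis) of the 52 clones (points) in the field channel (red) and the cabinet channel (blue) of each plant, as a mean over its 2 arrays. Black bars are the medians of the clones and dotted lines those of all 4279 names. The clones' median stands above that of all names only in the field channel of the 3 plants of 2003 (47.9 to 60.4-fold).

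Signals of single clones also moved between the array years where the RNA was of the same kind. The cabinet signal of a clone on the 2005 arrays was 0.135 to 6.76 times that on the 2003 arrays, with a median of 1.23. In drt8_h04 the cabinet signal was 3.67-fold over background on the 2005 arrays and 13.1-fold on the 2003 arrays, while in drt3_g06, whose ratios are nearly the same, it was 28.3-fold and 12.2-fold. The part of such shifts in the ratios was not tested. The level of spots without a name was taken over the 12 arrays of both years and not for 2005 alone. Their median signals were 3.66-fold (field) and 3.76-fold (cabinet). Both signals of 2005 were at or under these in drt13_h10 (2.26-fold in the field channel and 2.31-fold in the cabinet channel), drt7_e04 (2.48-fold and 2.54-fold) and drtg6-56 (2.66-fold and 2.42-fold). In these 3 clones a ratio near 1 in 2005 cannot be told apart from a transcript not detected in either channel. The field signal of drtg2-95 was 3.50-fold in 2005, and the cabinet signals of drt8_h04 and drtg3-10 on the 2005 arrays were 3.67-fold and 2.83-fold. In 2003 the field signal of all 52 clones was above that of the unnamed spots, at 10.9-fold or more. At the maximum of the scanner lay 27 of 1980 field readings and 0 of 1980 cabinet readings of the clones, and a ratio with a field reading at the maximum is understated.

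The exchange of dyes is a measure that the selection did not use, since it averaged the 2 arrays of a plant. The field RNA in Cy5 minus the field RNA in Cy3 gave a median difference of 0.06 over the 52 clones (-0.38 to 0.57), beside -0.008 over all names. Limma on this difference over the 6 plants called 0 of the 52, with 11 at an unadjusted p under 0.05. Of all names 1.4% were called, with 1435 at an unadjusted p under 0.05. Without the fold limit it called 2, beside 15.2% of all names, cld15_a10 at -0.29 (limma adjusted p = 0.0491) and drt6_a08 at -0.32 (limma adjusted p = 0.0321). The 2 arrays of a plant differed in the median by 0.20 for these clones and by 0.21 for all names, which is small beside the median SD of 1.22 between plants of 2003. All 52 clones were above 0 on each of the 6 arrays of 2003, which the selection on plants above 0 and a high mean largely fixed. Across the 52 clones, which share their libraries and are no replicates, the 2 arrays correlated at r = 0.919, 0.847 and 0.930 for plants A, B and C of 2005 and at r = 0.953, 0.964 and 0.828 for plants A, B and C of 2003.

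**Figure D5:**
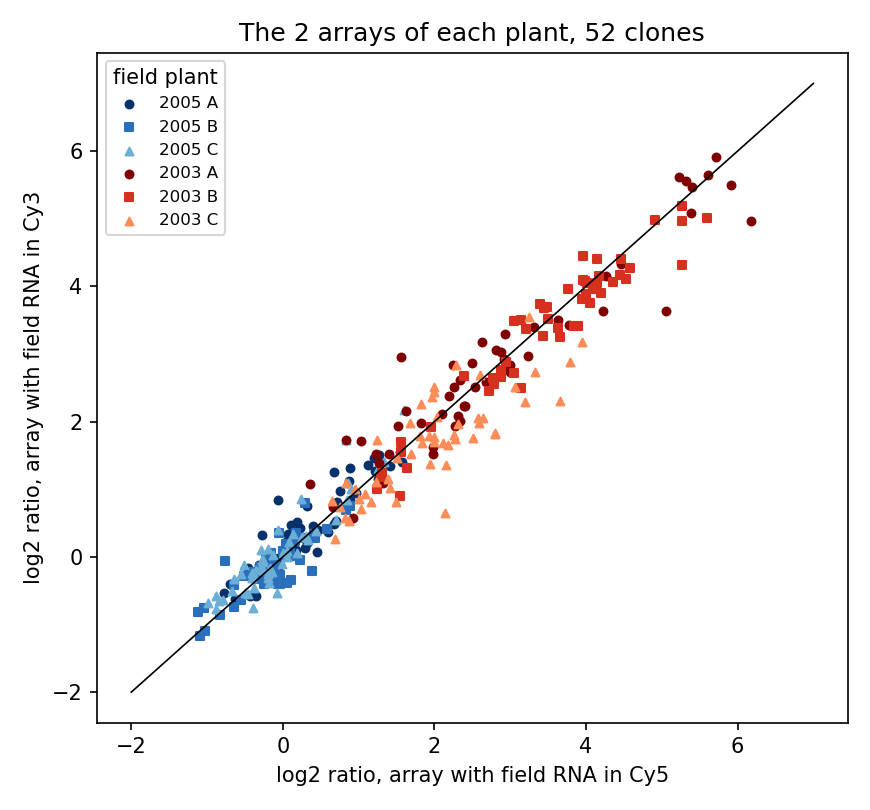
Log2 ratio of field over cabinet of the 52 clones on the array with field RNA in Cy5 (horizontal axis) and on the array with field RNA in Cy3 (vertical axis), by plant of 2005 (blue shades) and of 2003 (red shades). The line marks equal ratios, and plant C of 2003 lies below it in the median, by 0.31.

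The spot positions of most clones gave nearly the same ratio in 2003. The 52 clones had 165 spot positions (49 clones with 3, 3 with more), and 8 of 1980 readings were left out for their scanner mark. In all 52 clones every position was above 0.75 in the 2003 mean, and the lowest position of all was at 1.499. The selection averaged these same spots and asked for a 2003 mean of at least 1.5, which largely fixed this. The highest and lowest position of a clone differed by a median of 0.09 and by at most 0.68. The largest ranges were in cld4_e01 (3.75, 3.84 and 3.17 in 2003), in drtg1-43 and in drt3_g12. The last 2 clones have 6 positions each in sets of 3, and the ratios split between these sets. In drtg1-43, 3 positions gave 2.97 to 3.02 in 2003 and the other 3 gave 3.49 to 3.58. The spot names of the first 3 end in the letter F and those of the other 3 in G, letters whose meaning is not given. In cld22_g10, which also has 6 positions, 3 (letter W) gave 0.80 to 0.83 in 2005. The other 3 (letter G) gave 0.43 to 0.51. In drt3_g12, 3 positions gave -0.26 to -0.25 in 2005, against 2.33 to 2.42 in 2003, and the other 3 gave 0.26 to 0.34 in 2005, against 1.83 to 1.91 in 2003.

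Of the names written on the array as genes, 10 belong to ABA, dehydration and cold responses, and none of these can be among the 52, since the selection asked for a clone prefix. None met the numerical limits either. In limma 3 of the 10 were called higher in 2005, where 16.4% of all names were, and 1 in 2003, where 10.1% of all names were. The only one called in 2003 was RD20, a calcium-binding caleosin gene induced by dehydration and ABA, with 1.29, 0.82 and 0.93 in plants A, B and C of 2005, against 2.74, 3.12 and 1.51 in 2003. Its plants of 2003 were ordered as in the set led by drtg4-26, with B highest and C lowest, but all 3 plants of 2005 stayed above the cabinet. RD20 was also called for the dye difference, at -0.59 (limma adjusted p = 0.0075), as 1.4% of all names were. COR15, a cold-regulated chloroplast protein gene, had its higher values in 2005, with 3.19, 1.83 and 3.64 in 2005, against 1.44, 0.49 and 0.36 in 2003. The other called in 2005 was ZEP, named for the zeaxanthin epoxidase of ABA synthesis, at a mean of 1.02 in 2005 and 0.42 in 2003. For the difference of 2005 minus 2003, 0 of the 10 were called (limma), with a median of 0.08.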

How the data were processed

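Transcripts in cauline leaves of 6 field plants were measured against cabinet plants on 12 two-colour cDNA arrays of 14688 spots. The authors deposited the linear intensity and local background intensity of each spot as QuantArray gave them, and processed log10 values of the same arrays, used only as an alternative. How those were normalized is not stated in the sources, and their columns were set against the scanner ratios for scale and direction. Background correction (normexp, offset 50) and loess within arrays were run in limma 3.58.1 under R 4.3.3. Control spots had weight 0 and were then left out, and spots whose Ignore Filter was not 1 were dropped. Spots of a name and the 2 arrays of a plant were averaged, so n = 3 plants a year, a number that limits the precision. Both years shared 1 spread per cDNA (2.66 prior degrees of freedom), and adjustment was over 4279 names. Clustering used scipy 1.17.1 in Python 3.11.15. The fit was tested on simulated data. Same-lettered plants deviated together (r = 0.576 for A, 0.242 for B and 0.314 for C, against -0.331 to 0.0512 for different letters), a pairing read from these data. The members and lists were chosen with earlier results of these data known. Clones named singly were those highest in 2003, most and least even between plants of 2003, called in 2005 minus 2003, next to a limit, or differing most between spot positions, and further clones were named for their profile set or signal after their values were seen. Alternatives covered background, normalization, filters, blocks and each plant left out. The methods' Bayesian model was not repeated.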

Additional observations from a re-analysis of the deposited data

Results flagged for a closer look

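In limma over all 6 plants, 6 of the 52 clones were called in the difference between the harvest years. The selection used both year means, so these calls are a description of the chosen clones and no independent evidence that the years differ. The difference of 2005 minus 2003 was -4.04 in drt11_b03, -3.71 in drt13_h10, -3.34 in drtg1-43, -2.52 in cld15_a10, -1.58 in slt9_e05 and -1.31 in drt2_g09. The size of the difference in drt13_h10 is uncertain, since both of its signals of 2005 were under those of the unnamed spots (2.26-fold in the field channel and 2.31-fold in the cabinet channel). In addition, 4 clones, drt13_h10 among them, stood out because every plant of 2005 was below the cabinet level and every plant of 2003 above it. Their 2005 means were -0.132 in drt13_h10, -0.427 in drtg2-95, -0.284 in slt1_e08 and -0.4 in drtg5-69. These values lie close to 0, and none of the 4 was called against the cabinet in 2005. In drtg2-95 the field signal of 2005 was also under that of the unnamed spots, at 3.50-fold, with a cabinet signal of 4.41-fold. The 2005 mean of drt13_h10 was 0.239 with print-tip loess, and slt1_e08 had 0.0894 in plant C of 2005 on the scale of the selection. The opposite direction itself was not tested. The difference of the years in limma had an adjusted p of 0.0609 in drtg2-95, 0.086 in slt1_e08 and 0.0558 in drtg5-69, and with the plant letter as a block 0.0456, 0.0768 and 0.0446. Groups of 3 plants are too small for a check of single outlying plants.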

How the results depend on the processing

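Under the 6 processing alternatives of the selection, 51 to 60 clones met the limits and 45 of the 52 met them under all 6. Leaving out 1 plant gave 42 to 65. The number of the 52 called in 2003 was 0 with each year fitted alone, against 49, and 38 to 45 with a plant left out. The number called in 2005 was 1 with each year fitted alone and 0 to 2 with a plant left out, with 2 when plant B of 2003 was left out, against 0. For 2005 minus 2003, in place of 6, it was 14 without background correction, 31 with the plant letter as a replicate block, 42 with the recorded day as a random block over the 12 arrays, and 0 to 30 with a plant left out (1 without plant A of 2003, 15 without B, 30 without C and 0 without any plant of 2005). Over all names the difference had 332 calls with the plant letter, 421 with the recorded day, 169 without background correction and 133 with the deposited values, against 69, and 0 to 160 with a plant left out. In the fit with the recorded day, the 12 arrays entered separately, with no term for the plant. Its 42 and 421 calls therefore treat the 2 arrays of a plant as replicates. The dye difference over all names had 198 calls with the array median, 4 with print-tip loess and 5 with the deposited values, against 60. With a plant left out, the calls over all names went down to 457 in 2005, against 1351, and to 374 in 2003, against 742. For the dye difference it was 2 without the fold limit and 0 to 1 with a plant left out, with 1 when plant B of 2003 was left out. Other settings kept each count of the 52 clones within 1.5 times, and their median ratios moved by less than the SD between plants. The chosen clones named singly were also compared, without those named only for their profile set or signal. None changed the direction of its 2003 ratio or its difference in 270 comparisons of each. Of these comparisons 25 and 30 ended a call, and 5 and 25 gained one. The 2005 mean moved by its SD between plants or more in 6 of 270 comparisons. With the array median it was 0.35 in cld15_a10, against 0.03, and 0.49 in slt9_e05, against 0.19. In limma the adjusted p of the 6 clones called in the difference ran over the alternatives between 0.000404 and 0.182. The lowest came from the fit with the recorded day, where arrays and not plants were the observations. Depth is limited in 2005, where 3 clones were no brighter than unnamed spots in either channel.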
